A study of Mus musculus with 18 samples.

Results

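The collagens, laminins and basement membrane glycoproteins were examined in granule neuron progenitors (GNPs) and medulloblastomas of mice with and without Ndp. Members were all genes whose array symbol is that of a collagen chain, a laminin α, β or γ chain, Nid1, Nid2, Hspg2, Agrn, Tnc, Fn1 or Sparc. The rule reads symbols alone. It gave 57 of the 19057 genes on the array, and each was followed through its probe with the highest mean over all arrays.

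A basement membrane is the thin sheet of extracellular matrix on which endothelial cells and pericytes sit and which covers the brain surface under the meninges. Laminin trimers of an α, a β and a γ chain and a network of type IV collagen form its layers, which nidogens and the heparan sulphate proteoglycans perlecan (Hspg2) and agrin link together. In the cerebellum, the pial basement membrane borders the external granule layer in which GNPs divide, and capillaries of the layer carry a sheath of their own. Fibrillar collagens (types I, III and V) belong to connective tissue such as the meninges and the walls of larger vessels. Fibronectin (Fn1), SPARC and tenascin-C (Tnc) are matrix glycoproteins that bind cells or modulate how cells attach.

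Transcript levels across the genome came from 18 Illumina arrays of the MouseWG-6 v2 design. GNPs, the cerebellar precursors from which Sonic hedgehog medulloblastoma arises, were purified from cerebella at postnatal day 6 by a Percoll gradient and pre-plating. Wild-type (WT) and Ptch+/- mice were C57Bl/6, and NdpKO mice, in which a lacZ cassette disrupts the X-linked Ndp locus, were on a mixed background. For NdpKO;Ptch+/- mice the labels gave no strain, apart from 1 array labelled as mixed. Each of the 4 genotypes had 4 arrays. The arrays of a genotype were taken as separate animals, since a legend of the study counts animals per group. The methods restrict both Ndp-deficient genotypes to males, allow both sexes in the other groups and describe mutants and controls as sharing a breeding cohort, although the labels give them different strains. Differences between genotypes, strains and sexes cannot be told apart where these change together. Ptch1 is the hedgehog receptor, which keeps the pathway silent until ligand binds, and Ndp encodes Norrin, a ligand for Frizzled4 on endothelial cells. The 2 tumours, 1 from a symptomatic Ptch+/- and 1 from a symptomatic NdpKO;Ptch+/- mouse, had no replicates.

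Values are log2 levels of a probe after background correction and quantile normalization. Every array had a median of 4.13, and 76.0% of the 45281 probes had a mean below 5, the level taken here as near background. Ptch1 had a mean of 8.63 in WT and 7.83 in Ptch+/- GNPs and fell by 0.80 ± 0.10 (SE; limma, adjusted p = 0.0040). Each NdpKO;Ptch+/- array (mean 8.06) had less Ptch1 than each NdpKO array (mean 8.80), though limma did not call it (adjusted p = 0.078). The Ndp probe lay between 4.10 and 4.13 on every array, WT included, so it could not check the Ndp genotype. The GNP markers Zic1, Meis1 and Barhl1, transcription factors of the lineage, had means of 12.87, 11.32 and 10.17 over the 18 arrays, whereas the probes of Atoh1, Pax6 and Mycn were near background. The summed linear level of the 8 GNP markers was 10725 to 11622 in WT and higher, 12295 to 13637, in every Ptch+/- array. NdpKO replicates 1, 2 and 3 (12378, 12371 and 12716) were also above every WT array, and replicate 4 (10535) was below. NdpKO;Ptch+/- sums, 10406 to 12146, overlapped those of WT. Zic2 of this list rose by 0.76 ± 0.10 in Ptch+/- against WT (limma, adjusted p = 0.0071) and had an interaction of -0.96 ± 0.14 (adjusted p = 0.022), and the part of this in the matrix differences was not tested. The first principal component of the GNP arrays held 43.6% of the variance. WT arrays and NdpKO;Ptch+/- replicates 2, 3 and 4 lay on 1 side of it. Ptch+/- arrays and NdpKO replicates 1, 2 and 3 lay on the other. This split came from the 1500 probes of widest interquartile range, so it is not particular to the members. NdpKO replicate 4 lay with the WT arrays and NdpKO;Ptch+/- replicate 1 with the Ptch+/- arrays. These are the 2 arrays that stood apart. NdpKO;Ptch+/- replicate 2, whose Ptch1 was below that of every NdpKO array, carried conflicting labels and was grouped by its title. In GNPs, calls that change without these arrays are given both ways for members with a mean of at least 5. The same holds for medians without the 2 that stood apart. Those 2 were picked for lying against the split, so leaving them out widens it by choice. Over members with a mean of at least 5, the median interaction then went from 1.05 to 1.32. The median of NdpKO against WT went from -0.51 to -0.68. Calls gained in this way are therefore no support.

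Of the 57 members, 19 had a mean of at least 5 over all arrays, and 9 were at or above 5 on each of the 18 arrays. These were Agrn, Col4a1, Col4a2, Col6a1, Col16a1, Col18a1, Lamc1, Nid1 and Sparc. In 36 members every group mean was below 5. Lama5 and Lamb2 had a lower overall mean but reached 5 in a group. The fibrillar collagen genes Col1a1, Col1a2, Col3a1 and Col5a2 did not exceed 4.32, 4.20, 4.48 and 4.16 on any array. The same held for Lama2, Lama4 and Lamb1, laminin chains known from vessel walls, whose highest values were 4.13, 4.15 and 4.14. A probe near background may fail to detect its transcript, so these values do not show that the genes were silent.

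In GNPs, most of the 19 measured members had their lowest means in Ptch+/- or NdpKO cells, and the NdpKO;Ptch+/- means lay nearer to WT. Tnc was the member that passed the test in Ptch+/- GNPs, where it was 2.13-fold lower than in WT. Tnc and Lamc1 passed the test of interaction, which asks whether the difference made by Ndp loss depends on the Ptch genotype. Neither passed with NdpKO;Ptch+/- replicate 2, the array with conflicting labels, counted as NdpKO, nor with a replicate block. Type IV collagen, nidogens, Sparc and Fn1 had differences of the same sign as Tnc that did not pass.

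Tests were made in limma with 1 mean per genotype over the 16 GNP arrays, and a probe was called at an adjusted p below 0.05 over all 45281 probes. For Ptch+/- against WT 1 member was called, Tnc, beside 1.09% of all probes. No member was called by limma for NdpKO against WT, where 0.307% of probes were called. For NdpKO;Ptch+/- against Ptch+/- 0 members and 0.0155% of probes were called. For NdpKO;Ptch+/- against NdpKO limma called 0 members and 0.00442% of probes. For NdpKO;Ptch+/- against WT it called 0 members and 0.0508% of probes. The interaction was called for 2 members, beside 0.495% of probes. With so few calls, the differences themselves are described next.

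The difference from WT was negative for 19 of the 19 measured members in Ptch+/- GNPs, with a median of -0.53. Over all 10855 probes with a mean of at least 5 the median was 0.03 and 46.2% were negative. In NdpKO GNPs 17 of the 19 were negative, with a median of -0.51 against 0.02 over all such probes. These comparisons share the WT arrays and are not independent of each other. Between NdpKO;Ptch+/- and Ptch+/- 18 of the 19 were positive, with a median of 0.33 against -0.02 over the probes. Without the 2 arrays that stood apart, the medians were -0.53, -0.68 and 0.42, with 19 and 16 of 19 negative and 16 of 19 positive. Without NdpKO;Ptch+/- replicate 4 the last median was 0.22, and without Ptch+/- replicate 2 it was 0.35 with 14 of 19 positive. Col15a1 reached a mean of 5 only through its NdpKO;Ptch+/- and tumour arrays, and without it 17 of 18 were positive, with a median of 0.33.

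The groups of 4 did not overlap for 7 of the 19 members in Ptch+/- against WT, each lower, beside 10.3% of probes with a mean of at least 5. They were Col4a1, Col4a2, Lamc1, Nid1, Col23a1, Tnc and Sparc. For NdpKO against WT 6 were lower without overlap, namely Lama1, Lamc1, Nid1, Col23a1, Fn1 and Tnc, beside 4.54% of probes. For NdpKO;Ptch+/- against Ptch+/- 5 were higher without overlap, beside 4.05% of probes: Col4a1, Col15a1, Lamc1, Col26a1 and, by a narrow margin, Tnc. Without Col15a1, whose high arrays in NdpKO;Ptch+/- put it among the measured members, 4 of 18 remained.

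**Figure D1:**
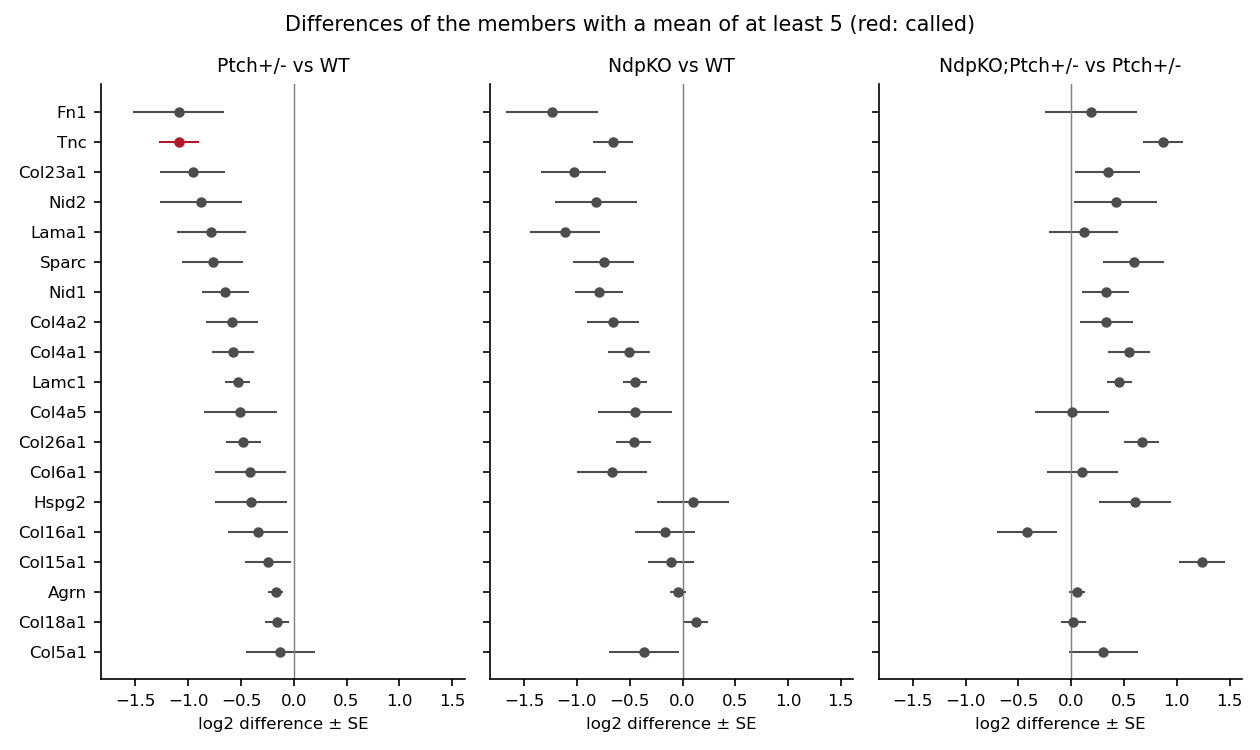
Log2 difference (x axis, with SE bars from limma, 4 arrays per genotype) of each of the 19 members with a mean of at least 5 (rows) in Ptch+/- against WT, NdpKO against WT and NdpKO;Ptch+/- against Ptch+/- GNPs. All 19 points lie left of 0 in Ptch+/- against WT, where Tnc, in red, was the called member, and 18 lie right of 0 in NdpKO;Ptch+/- against Ptch+/-.

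Tenascin-C, an anti-adhesive matrix protein made in the developing cerebellum mainly by Bergmann glia, had the clearest difference between genotypes. The 4 WT arrays read 7.65, 7.73, 7.89 and 7.89. Ptch+/- GNPs had Tnc at 6.44, 6.55, 7.25 and 6.55. NdpKO cells gave 7.41 in replicate 4 and 6.82, 7.17 and 7.12 in the others. Every Ptch+/- and NdpKO array was below every WT array, and Ptch+/- replicate 3 stood above its group. In NdpKO;Ptch+/- GNPs Tnc was at 7.68, 7.26, 7.39 and 7.93, above all 4 Ptch+/- arrays. The margin was narrow, 7.26 in replicate 2 against 7.25 in Ptch+/- replicate 3. The arrays at 7.26 and 7.39 were below every WT array. Tnc fell by 1.09 ± 0.19 in Ptch+/- against WT (limma, adjusted p = 0.023). NdpKO differed from WT by -0.66 ± 0.19 (adjusted p = 0.19). NdpKO;Ptch+/- exceeded Ptch+/- GNPs by 0.87 ± 0.19 (adjusted p = 0.21). Its interaction was 1.52 ± 0.27 (adjusted p = 0.040), which was 1.60 (adjusted p = 0.070) with NdpKO;Ptch+/- replicate 2 counted as NdpKO and missed the threshold with a replicate block (adjusted p = 0.058). A further probe of Tnc gave -1.36 in Ptch+/- against WT (adjusted p = 0.080) and 2.10 for the interaction (adjusted p = 0.074).

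The Tnc call in Ptch+/- GNPs depended on single arrays. It was lost without WT replicate 2 (adjusted p = 0.051), WT replicate 3 (0.059), Ptch+/- replicate 1 (0.071), Ptch+/- replicate 2 (0.068) or Ptch+/- replicate 4 (0.057), with differences from -1.11 to -1.004. The interaction of Tnc was lost without any 1 of 13 of the 16 arrays, with values from 1.40 to 1.63 and adjusted p up to 0.090, and was kept without NdpKO replicate 4, NdpKO;Ptch+/- replicate 1 or Ptch+/- replicate 3.

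The stretch upstream of the Tnc start is shown because Tnc was the member called in Ptch+/- GNPs. It covers 250 bases of the minus strand at chr4:64047016-64047265 (RefSeq, GRCm38.p6), 5′ to 3′. Capitals mark the letters of a GC box (GGGCGG) and, near the middle of the stretch, those of a TATA box (TATAAA).
Tnc: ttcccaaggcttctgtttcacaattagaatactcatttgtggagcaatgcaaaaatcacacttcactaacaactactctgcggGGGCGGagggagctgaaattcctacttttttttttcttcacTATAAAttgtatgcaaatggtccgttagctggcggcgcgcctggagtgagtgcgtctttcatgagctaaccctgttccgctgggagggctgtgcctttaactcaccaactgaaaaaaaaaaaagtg

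Letters were searched on both strands in the 250 bases upstream of the start of 27025 genes, and 43 of the 57 members had such a stretch. TATAAA was found in 13.0% of genes and 6 of the 43 members, and of the 14 measured members with a stretch only Tnc held it. GGGCGG was found in 33.0% of genes and in 27 of the 43 members, and CCAAT in 34.5% of genes and 14 of the 43. A match is a description of the sequence, not a bound site.

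Among laminins, the γ1 chain gene Lamc1, shared by most laminin trimers, had little spread within groups. It read 7.99, 8.01, 7.78 and 7.75 in WT, 7.43, 7.30, 7.35 and 7.32 in Ptch+/- and 7.45, 7.53, 7.15 and 7.60 in NdpKO GNPs. Every array of either single mutant was below every WT array. NdpKO;Ptch+/- arrays were at 7.53, 7.92, 7.72 and 8.05, all above the Ptch+/- arrays and overlapping WT. The differences from WT were -0.53 ± 0.12 in Ptch+/- (adjusted p = 0.051) and -0.45 ± 0.12 in NdpKO (adjusted p = 0.15). NdpKO;Ptch+/- exceeded Ptch+/- by 0.46 ± 0.12 (adjusted p = 0.29).

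The interaction of Lamc1 was 0.91 ± 0.16 (limma, adjusted p = 0.042). It was 0.77 (adjusted p = 0.21) with NdpKO;Ptch+/- replicate 2 counted as NdpKO, and its call was lost with a replicate block (adjusted p = 0.067). Without the 2 arrays that stood apart Lamc1 was also called in Ptch+/- against WT (adjusted p = 0.017), in NdpKO against WT (-0.51, adjusted p = 0.036) and between the NdpKO;Ptch+/- and Ptch+/- genotypes (0.55, adjusted p = 0.027). Leaving out 1 array at a time, it kept its call without WT replicate 4, NdpKO replicate 4 or NdpKO;Ptch+/- replicate 1 and lost it without any of the other 13 arrays, with values from 0.81 to 0.94 and adjusted p up to 0.098. The dimmer Lamc1 probe gave 0.78 for the interaction (adjusted p = 0.46) and -0.33 for Ptch+/- against WT (adjusted p = 0.74).

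Lama1, the laminin α1 chain of the pial basement membrane, was at 6.43, 6.14, 5.87 and 6.21 in WT GNPs. The Ptch+/- arrays were split, at 5.72, 4.78, 4.71 and 6.31, and the NdpKO arrays read 5.59, 4.97, 4.51 and 5.12. NdpKO;Ptch+/- GNPs had 5.23, 5.71, 5.70 and 5.35. All NdpKO and NdpKO;Ptch+/- arrays lay below the WT arrays, whereas 1 Ptch+/- array was within them. The differences from WT were -0.78 ± 0.33, -1.11 ± 0.33 and -0.66 ± 0.33 in the 3 mutants in that order, and none passed (adjusted p = 0.32, 0.20 and 0.75). Lama5 was near background in GNPs, with group means from 4.42 to 4.98. Lamb2 had a mean of 5.13 in WT and of 4.54 to 4.71 in the other genotypes.

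**Figure D2:**
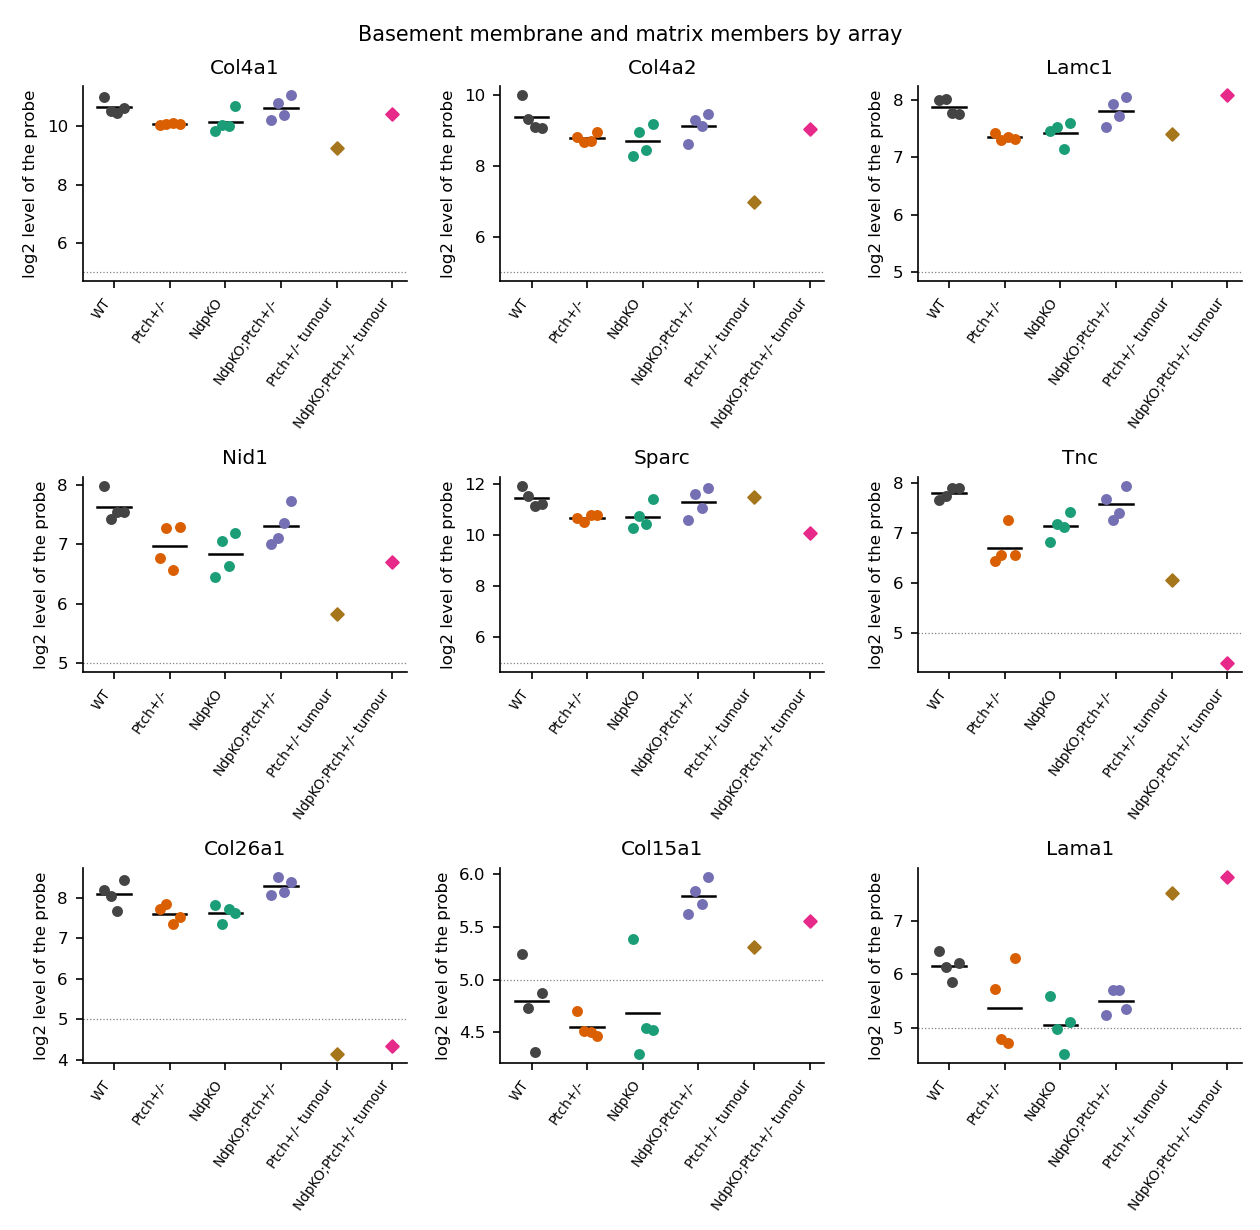
Log2 level of the probe (y axis) of 9 members in each array, with circles for the 4 GNP arrays of a genotype, bars for their mean, diamonds for the single tumours and a dotted line at 5, near background. Tnc and Lamc1 were lower in every Ptch+/- and NdpKO array than in every WT array, and Col26a1 was near 4 in both tumours.

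Type IV collagen forms the network of basement membranes, and its common trimer holds 2 α1 chains and 1 α2 chain. Col4a1 read 11.01, 10.54, 10.46 and 10.63 in WT and 10.05, 10.09, 10.11 and 10.08 in Ptch+/- GNPs, so the groups did not overlap and the Ptch+/- arrays were within 0.1 of each other. NdpKO arrays had 9.86, 10.05 and 10.02, and replicate 4 had 10.69. NdpKO;Ptch+/- arrays had 10.24 in replicate 1 and 10.80, 10.41 and 11.08 in the others, all above Ptch+/-. Ptch+/- differed from WT by -0.57 ± 0.20 (adjusted p = 0.21), and NdpKO;Ptch+/- exceeded Ptch+/- by 0.55 ± 0.20 (adjusted p = 0.45). Without NdpKO replicate 4 and NdpKO;Ptch+/- replicate 1, Col4a1 was called in NdpKO against WT (-0.68, adjusted p = 0.047), in NdpKO;Ptch+/- against NdpKO (0.79, adjusted p = 0.045) and for the interaction (1.36, adjusted p = 0.0047).

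Col4a2 is the head-to-head neighbour of Col4a1: RefSeq places the start of Col4a1 at 11312826 on the minus strand and that of Col4a2 at 11312805 on the plus strand of chromosome 8 (GRCm38.p6). Col4a2 levels were 9.996, 9.32, 9.09 and 9.06 in WT and 8.81, 8.67, 8.71 and 8.94 in Ptch+/- arrays, again without overlap. NdpKO arrays gave 8.27, 8.95, 8.43 and 9.17, and NdpKO;Ptch+/- arrays 8.61, 9.28, 9.12 and 9.46. NdpKO replicate 4 was the highest of its group and NdpKO;Ptch+/- replicate 1 the lowest of its group for both genes. Col4a2 differed by -0.58 ± 0.25 between Ptch+/- and WT (adjusted p = 0.33), and by 0.33 ± 0.25 between NdpKO;Ptch+/- and Ptch+/- (adjusted p = 0.78). Without the 2 arrays that stood apart its interaction was called (1.32, adjusted p = 0.037).

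Col4a5, a chain of other type IV trimers, ranged from 4.60 to 6.13 over the GNP arrays and overlapped between all genotypes. Its differences from WT were -0.51 ± 0.35 in Ptch+/- and -0.45 ± 0.35 in NdpKO GNPs. Col4a3, Col4a4 and Col4a6 stayed at or below 4.16 on every array.

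Nidogens bridge the laminin and type IV collagen networks. Nid1 was at 7.99, 7.43, 7.54 and 7.54 in WT, and lower in each array of Ptch+/- (6.77, 7.28, 6.57 and 7.29) and NdpKO GNPs (6.45, 7.05, 6.64 and 7.20). NdpKO;Ptch+/- arrays read 7.01, 7.11, 7.36 and 7.73. The differences of Nid1 from WT were -0.65 ± 0.22 in Ptch+/- (adjusted p = 0.21) and -0.79 ± 0.22 in NdpKO (adjusted p = 0.18), and its interaction was 1.12 ± 0.32 (adjusted p = 0.13). Without the 2 arrays that stood apart the interaction of Nid1 was called (1.34, adjusted p = 0.038), and its NdpKO difference was -0.91 (adjusted p = 0.075). Nid2 had 7.03, 6.19, 6.00 and 6.73 in WT. Ptch+/- and NdpKO GNPs overlapped with it, at 6.14, 4.90, 5.37 and 6.02 and at 5.59, 4.99, 5.91 and 6.19. The differences of Nid2 were -0.88 ± 0.39 and -0.82 ± 0.39 (adjusted p = 0.35 and 0.47).

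The proteoglycans differed less. Perlecan (Hspg2) ranged from 5.61 to 7.26 over WT and Ptch+/- arrays and from 6.09 to 7.79 over NdpKO and NdpKO;Ptch+/- arrays, and its largest difference, 0.61 ± 0.34 for NdpKO;Ptch+/- against Ptch+/-, did not pass (adjusted p = 0.67). Agrin, known at synapses as well as in vessel basement membranes, stayed between 11.36 and 11.84 on all 16 GNP arrays. Its difference of -0.17 ± 0.07 in Ptch+/- against WT did not pass (adjusted p = 0.33).

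Collagens XV and XVIII carry glycosaminoglycan chains and lie in the basement membrane zone of vessels. Col15a1 stood near background in WT (5.24, 4.73, 4.32 and 4.88), Ptch+/- (4.70, 4.51, 4.51 and 4.47) and NdpKO GNPs (5.38, 4.29, 4.54 and 4.52). All 4 NdpKO;Ptch+/- arrays, at 5.62, 5.84, 5.71 and 5.97, were above all 12 of the others. Col15a1 was at least 1.73-fold higher in NdpKO;Ptch+/- than in Ptch+/- GNPs, a bound computed against level 5. The difference of 1.24 ± 0.22 did not pass (adjusted p = 0.12). It was called without NdpKO;Ptch+/- replicate 1 (adjusted p = 0.049). Against WT the difference of Col15a1 was 1.00 ± 0.22 (adjusted p = 0.19) and against NdpKO 1.10 ± 0.22 (adjusted p = 0.81). Col18a1 stayed between 10.50 and 11.10 in GNPs, with differences from -0.27 to 0.13 between genotypes.

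SPARC binds collagens and is made by endothelial cells and glia. Sparc was at 11.92, 11.53, 11.12 and 11.22 in WT and at 10.67, 10.50, 10.77 and 10.78 in Ptch+/- GNPs, without overlap. NdpKO arrays had 10.26, 10.73 and 10.41, with 11.40 in replicate 4. NdpKO;Ptch+/- replicate 1, at 10.61, was within the Ptch+/- range, and the other arrays had 11.60, 11.06 and 11.82. The difference of Sparc from WT was -0.77 ± 0.29 in Ptch+/- (adjusted p = 0.26) and -0.74 ± 0.29 in NdpKO (adjusted p = 0.35). Without the 2 arrays that stood apart it was called in NdpKO against WT (-0.98, adjusted p = 0.044) and for the interaction (1.79, adjusted p = 0.0068).

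Fibronectin, a ligand of integrins, varied widely within groups. Fn1 read 7.47, 6.65, 6.42 and 6.93 in WT, 6.43, 4.68, 6.20 and 5.80 in Ptch+/- and 5.75, 5.58, 4.87 and 6.34 in NdpKO GNPs. NdpKO;Ptch+/- arrays were at 5.62, 5.88, 5.46 and 6.90. The differences of Fn1 from WT, -1.09 ± 0.43, -1.23 ± 0.43 and -0.90 ± 0.43, came with large errors, and none passed (adjusted p = 0.29, 0.29 and 0.74).

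Of the remaining collagens, Col26a1 and Col23a1 showed separation between genotypes. Col26a1, a little-studied collagen, read 8.195, 8.03, 7.67 and 8.44 in WT, 7.71, 7.85, 7.35 and 7.52 in Ptch+/- and 7.81, 7.36, 7.71 and 7.61 in NdpKO GNPs. At 8.07, 8.51, 8.13 and 8.39, all NdpKO;Ptch+/- arrays were above all arrays of both single mutants and overlapped WT. Its difference was 0.67 ± 0.17 against Ptch+/- (adjusted p = 0.28) and 0.65 ± 0.17 against NdpKO (adjusted p = 0.84), and the interaction was 1.13 ± 0.23 (adjusted p = 0.059), which was called without the 2 arrays that stood apart (1.19, adjusted p = 0.025). Col23a1, a transmembrane collagen, had 6.72, 6.48, 6.27 and 6.17 in WT and lower values in Ptch+/- (5.22, 5.84, 5.68 and 5.09) and NdpKO GNPs (5.11, 5.11, 5.41 and 5.89). The differences of Col23a1 were -0.96 ± 0.31 (adjusted p = 0.17) and -1.03 ± 0.31 (adjusted p = 0.20), and its NdpKO;Ptch+/- arrays spread from 4.92 to 6.58. Without NdpKO replicate 4 and NdpKO;Ptch+/- replicate 1, the NdpKO differences from WT were -1.20 for Col23a1, -1.47 for Fn1, -1.14 for Lama1, -0.99 for Nid2, -0.82 for Col4a2 and -0.75 for Tnc, and none of these passed.

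Col5a1, Col6a1 and Col16a1 overlapped between WT and both single mutants. Col5a1, which helps to start collagen fibrils, ranged from 5.44 to 7.38 and Col6a1, of beaded filaments, from 5.84 to 8.11 over the GNP arrays. The differences of Col6a1 from WT were -0.41 ± 0.33 in Ptch+/- and -0.67 ± 0.33 in NdpKO GNPs. Col16a1, which associates with other collagens, was the measured member that was lower in NdpKO;Ptch+/- than in Ptch+/- GNPs (-0.42 ± 0.29, adjusted p = 0.75). It read 7.31, 7.05, 6.42 and 7.003 in NdpKO;Ptch+/- arrays, each below the WT arrays (8.03, 7.82, 7.56 and 7.41).

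Within WT, NdpKO and NdpKO;Ptch+/- GNPs, the members followed the arrays. Of the 19 measured members, WT replicate 1 was the highest array of its group for 14, NdpKO replicate 4 for 10 and NdpKO;Ptch+/- replicate 4 for 12, and NdpKO;Ptch+/- replicate 1 was the lowest of its group for 10. The endothelial list, with 9 of its 12 markers at a mean of at least 5, moved with these arrays. WT replicate 1 was highest for 9 of the 9, NdpKO replicate 4 for 8 and NdpKO;Ptch+/- replicate 4 for 7, and NdpKO;Ptch+/- replicate 1 was lowest for 9. The Ptch+/- arrays did not follow this. Ptch+/- replicate 3 was highest for 7 endothelial markers but lowest for 7 members. Ptch+/- replicate 4 was highest for 8 members but for 1 endothelial marker.

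Between genotypes, all 9 of these endothelial markers were lower in Ptch+/- and in NdpKO than in WT GNPs, with median differences of -0.73 and -0.76, and all 9 were higher in NdpKO;Ptch+/- than in Ptch+/-, with a median of 0.68. None was called, and Kdr, Tie1 and Slco1a4 were near background. The summed level of the 12 markers, on a linear scale, was 4699 to 10762 in WT, 3186 to 4887 in Ptch+/-, 3062 to 5919 in NdpKO and 3440 to 7685 in NdpKO;Ptch+/- GNPs. The astrocyte and Bergmann glia list, with 7 of 8 at a mean of at least 5, had sums of 14916 to 18660, 9588 to 11564, 9156 to 13991 and 12681 to 15663 in that order, and Sox9 (Ptch+/- against WT) and Gfap (NdpKO against WT) were called lower. The mural list had 2 of 10 markers at that level, with Pdgfrb and Myh11 near background, and sums from 638 to 1314. Microglial markers, 3 of 8 at that level, summed to 982 to 1609 in WT, 565 to 988 in Ptch+/-, 464 to 727 in NdpKO and 564 to 884 in NdpKO;Ptch+/- GNPs. Meningeal and perivascular fibroblast markers, 5 of 10 at that level, summed to 8354 to 10596 in WT, 7333 to 9509 in Ptch+/-, 5620 to 7718 in NdpKO and 6774 to 8706 in NdpKO;Ptch+/- GNPs, so every NdpKO array was below every WT array. The mean log2 level of the fibroblast list overlapped, at 6.64 to 7.04 in WT and 6.55 to 6.92 in NdpKO arrays. Pdgfra of this list, known also from oligodendrocyte precursors, fell by 0.84 ± 0.17 in Ptch+/- against WT (limma, adjusted p = 0.040). The sum of 3 choroid plexus markers was 478 to 18431 in WT, 146 to 2238 in Ptch+/-, 118 to 3223 in NdpKO and 188 to 5281 in NdpKO;Ptch+/- GNPs. The part of these cells in the matrix differences was not tested. In RNA from many cells, fewer cells of a type and less RNA per cell cannot be told apart.

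**Figure D3:**
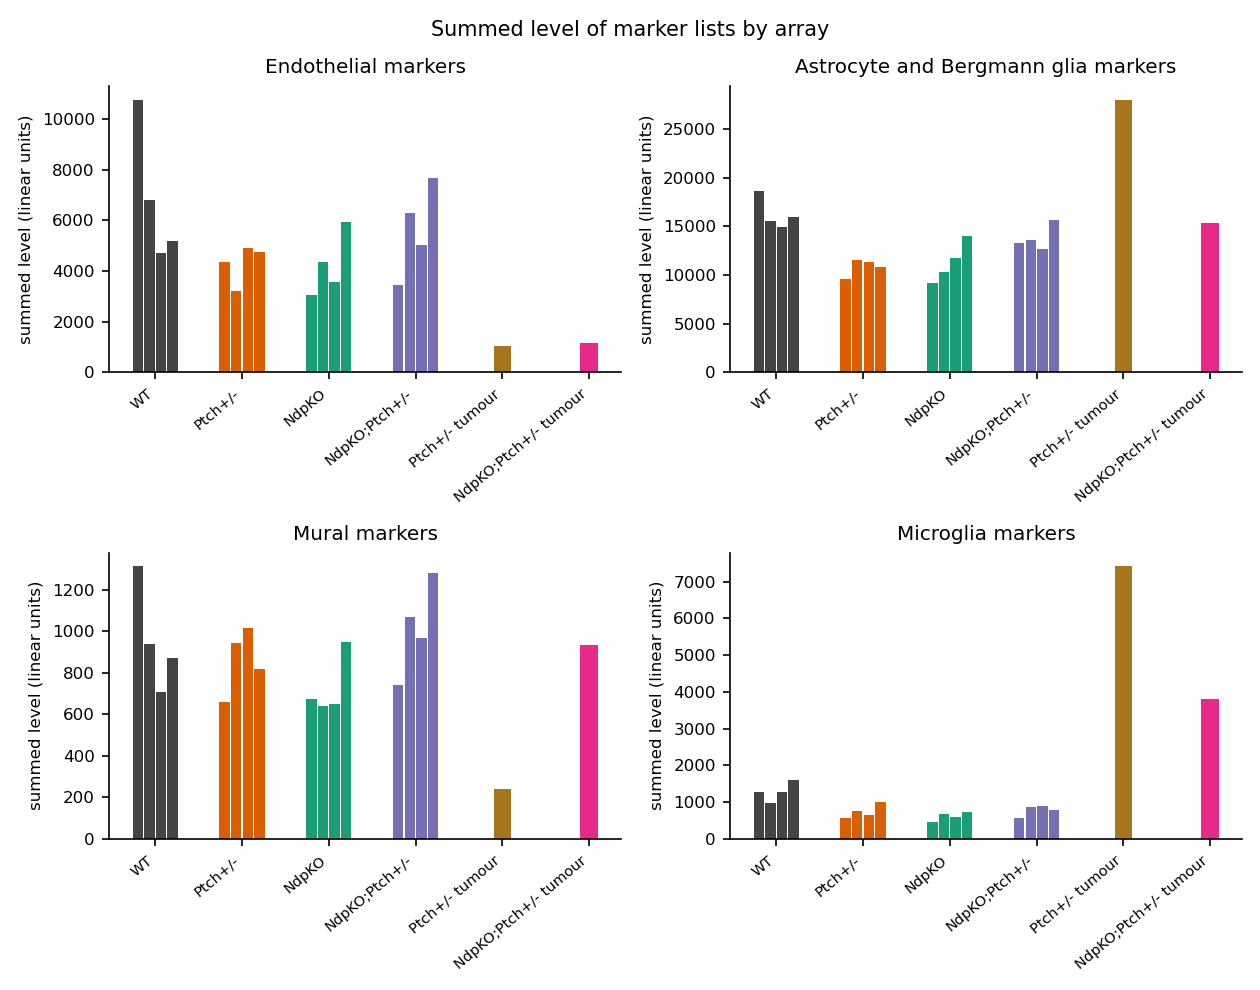
Summed level (y axis, linear scale) of the endothelial, astrocyte and Bergmann glia, mural and microglial marker lists in each array, with 1 bar per array. Endothelial sums were highest in WT replicate 1 at 10762 and lowest in the tumours at 1044 and 1132, where microglial sums reached 7423 and 3817.

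Other genes of matrix assembly were followed as lists. Of 17 measured genes of collagen synthesis and crosslinking, Ptch+/- against WT called 0, with 4 positive and 5 negative among the 9 at a mean of at least 5 and a median of -0.12. P4ha2, a subunit of the prolyl hydroxylase, was called in NdpKO against WT (-0.08 ± 0.01) within the background range. Of 21 matrix receptors, Cd44, the hyaluronan receptor, and Sdc4, a syndecan, were called in Ptch+/- against WT. Cd44 had a mean of 5.75 in WT and was near background at 4.43 in Ptch+/- GNPs, at least 1.69-fold lower (adjusted p = 0.00011). It was also called lower in NdpKO and in NdpKO;Ptch+/- than in WT, with means of 4.45 and 4.63 and the same bound. The interaction of Cd44 was called too (1.52 ± 0.14, limma, adjusted p = 0.0040). Every mutant mean was near background, which limits how far NdpKO;Ptch+/- could fall, so this interaction cannot be read. Sdc4 was at least 2.83-fold lower in Ptch+/- than in WT (adjusted p = 0.046), with 4.73 in Ptch+/- near background.

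The laminin and collagen receptor subunit Itgb1 did not pass, with means of 5.72, 5.50, 5.50 and 5.72 in WT, Ptch+/-, NdpKO and NdpKO;Ptch+/- GNPs. Dystroglycan (Dag1), a laminin receptor, was as even, at 8.18, 8.21, 8.07 and 8.07. No gene among 15 matrix proteases and inhibitors was called by limma in the 5 pairwise comparisons of GNPs. Of 21 other basement membrane and matrix genes, Vcan was called, higher by 0.52 ± 0.09 in Ptch+/- than in WT (adjusted p = 0.027) within the background range.

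Compared with the GNPs of their genotypes, the tumours had less Col26a1, Col5a1 and Tnc and more of the laminin chains Lama1 and Lama5. Collagen XXVI was at 4.15 and 4.34 in the Ptch+/- and NdpKO;Ptch+/- tumours, near background, against 7.35 to 8.51 in the 8 GNP arrays. Of the 57 members 8 were called, 3 higher and 5 lower, beside 14.7% of all probes. Over the 19 measured members 15 differences were negative, with a median of -0.59, which was -1.14 without the Ptch+/- tumour and -0.93 without the NdpKO;Ptch+/- tumour. The median over probes with a mean of at least 5 was -0.10, with 57.0% negative.

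Col26a1 fell by 3.70 ± 0.17 (limma, adjusted p = 5.15e-06) and was at least 7.68-fold lower. Col5a1 was at 4.60 and 5.22 in the tumours against 6.00 to 6.82 in the GNPs, and fell by 1.53 ± 0.17 (adjusted p = 0.00062), at least 2.73-fold. Each of these calls held under every alternative tried. Tnc was at 6.06 and 4.40 in the tumours, below all 8 GNP arrays, and fell by 1.90 ± 0.52 (adjusted p = 0.047). Its call was lost without any 1 of the GNP arrays (adjusted p from 0.059 to 0.085), and without the NdpKO;Ptch+/- tumour the difference was -0.63. A further Tnc probe fell by 1.99 (limma, adjusted p = 0.011), and its dependence on single arrays was not examined.

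Lama1 was at 7.51 and 7.82 in the tumours, above all 8 GNP arrays (4.71 to 6.31), and rose by 2.23 ± 0.40, or 4.69-fold (adjusted p = 0.0078). Left with 1 tumour, whose spread is then taken as that of the GNPs, the values were 2.32 without the Ptch+/- tumour (adjusted p = 0.058) and 2.13 without the NdpKO;Ptch+/- tumour (adjusted p = 0.073). Lama5, the laminin α5 chain of mature vessel basement membranes, was at 6.13 and 7.99, above the GNP arrays (4.17 to 5.69). It rose by 2.53 ± 0.48, at least 4.16-fold (adjusted p = 0.0099), and without the NdpKO;Ptch+/- tumour by 1.71 (adjusted p = 0.12). Col3a1, Col9a1 and Col8a1 were called for differences of -0.10, -0.04 and 0.02 within the background range, for which no fold is given. Nid2, near background in both tumours, differed by -1.45 and was not called (limma, adjusted p = 0.070). Without the 2 arrays that stood apart it was called (-1.60, adjusted p = 0.024).

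The stretch upstream of the Lama5 start is shown because Lama5 rose in the tumours and differed between them. It covers 205 bases of the minus strand at chr2:180225905-180226109 (RefSeq, GRCm38.p6), 5′ to 3′, without annotated untranslated bases, and the 3 matches to GGGCGG on either strand are in capitals.
Lama5: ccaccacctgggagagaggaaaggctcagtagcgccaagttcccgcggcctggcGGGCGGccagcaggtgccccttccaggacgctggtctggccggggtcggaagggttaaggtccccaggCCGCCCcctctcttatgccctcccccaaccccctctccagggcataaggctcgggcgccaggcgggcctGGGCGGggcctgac
Unlike the Tnc stretch it held no TATAAA.

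Cell type markers also moved with the tumours. The endothelial sum was 1044 and 1132, below every GNP array, and Cldn5, Emcn and Esam were called lower. All 8 microglial markers were called higher, with sums of 7423 and 3817 against 564 to 988 in the GNPs of these genotypes. Of the fibroblast list Dcn, Lum and Slc6a13 were called lower and Pdgfra higher. Its sums were 4490 in the Ptch+/- and 8154 in the NdpKO;Ptch+/- tumour, and its mean log2 level was 6.29 in both. Of the glial list Gfap, Sox9 and Slc1a2 were called higher and Aqp4 and Gja1 lower. Of the mural list Rgs5 was called lower and Cspg4 and Abcc9 higher. Cspg4 rose from a mean of 4.25 to 5.16, and Abcc9 stayed within the background range. The tumours were whole tissue and the GNPs a purified fraction. The part of these cells in the matrix differences was not tested.

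Other matrix genes called in the tumours included Smoc1, a SPARC relative of basement membranes, which rose by 3.94 ± 0.27 (adjusted p = 4.4e-05), and Egfl7, which vessels secrete and which fell by 2.01 ± 0.24 (adjusted p = 0.0010). Of 15 proteases and inhibitors 4 were called higher and 3 lower, and Reck, of the higher ones, had means below 5. Mmp2, a gelatinase, rose at least 7.66-fold from near background (adjusted p = 8.3e-06) and Timp3, a matrix-bound inhibitor, fell by 1.74 ± 0.10 (adjusted p = 1.4e-05). Of 17 genes of collagen synthesis 2 were called higher and 3 lower, and Pcolce, of the lower ones, was within the background range. Serpinh1, the collagen chaperone, fell by 1.79 ± 0.18 (adjusted p = 0.00035) and Plod2, a lysyl hydroxylase, rose at least 3.995-fold (adjusted p = 0.0023). Of 21 receptors 8 were called higher and 1 lower, and Itgb8, Ddr2 and Bcam of the 8 were within the background range. The integrin subunits Itgav and Itgb5, near background in GNPs with means of 4.20 and 4.42, rose at least 2.33-fold and 2.76-fold. Beside these counts, 14.7% of all probes were called in this comparison.

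The tumours differed from each other in type IV collagen and perlecan, higher in the NdpKO;Ptch+/- tumour, and in Col6a1, Tnc and Sparc, higher in the Ptch+/- tumour. With 1 tumour each there is no replicate check and no test, and such differences may lie between any tumours. Of the 57 members, 16 had a tumour at 5 or above, and 10 of these 16 had a log2 difference of 1 or more. Of 11443 probes with a tumour at that level, 13.9% differed by as much.

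Hspg2 was at 7.65 in the NdpKO;Ptch+/- tumour and 4.88 in the Ptch+/- tumour, at least 6.28-fold. Col4a2 had 9.05 and 6.97, and Col18a1 11.71 and 9.64, both 4.21-fold. Lama5 had 7.99 and 6.13 (3.62-fold) and Col4a1 10.43 and 9.27 (2.24-fold). For Col4a1 and Col4a2 it was the Ptch+/- tumour that lay below the GNP arrays of its genotype, while the NdpKO;Ptch+/- tumour was within them.

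In the other direction, Col6a1 was at 7.92 in the Ptch+/- tumour and 5.25 in the NdpKO;Ptch+/- tumour (6.38-fold). Col16a1 had 7.31 and 5.81 (2.84-fold), Sparc 11.48 and 10.08 (2.63-fold), Lamb2, the laminin β2 chain, 6.19 and 4.41 (at least 2.28-fold), and Tnc 6.06 and 4.40 (at least 2.09-fold). The Sparc probes disagreed, since the dimmest of the 3 had a difference of 0.36 in the opposite direction. A further Tnc probe differed by -0.59, below the size used here. Lamc1, Agrn and Nid1 differed by less than 1, with 8.09 and 7.41, 11.39 and 11.66, and 6.71 and 5.83 in the NdpKO;Ptch+/- and Ptch+/- tumours. Mural sums were 932 in the NdpKO;Ptch+/- and 241 in the Ptch+/- tumour, with Acta2 at 9.10 and 5.71 and Rgs5 at 7.67 and 4.81. The astrocyte and Bergmann glia sum was 15315 in the NdpKO;Ptch+/- and 28007 in the Ptch+/- tumour, higher in the same tumour as Tnc and Sparc. The fibroblast sum was 8154 in the NdpKO;Ptch+/- and 4490 in the Ptch+/- tumour, with Igf2 of this list at 12.31 and 10.73. The mean log2 level of the fibroblast list was 6.29 in both tumours. Endothelial sums were close, with Emcn at 7.71 and 4.29. Their part in the matrix differences was not tested.

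**Figure D4:**
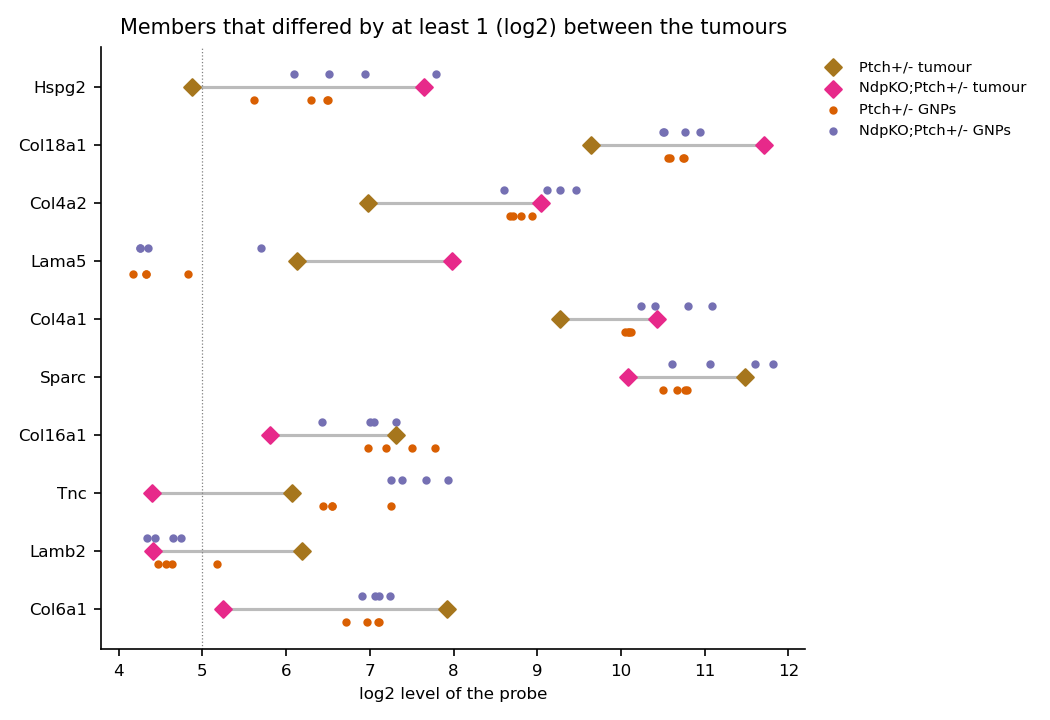
Log2 level of the probe (x axis) of the 10 members that differed by at least 1 between the tumours (rows), with diamonds for the tumours, joined by a line, small circles for the 4 GNP arrays of each genotype and a dotted line at 5. Hspg2, Col18a1, Col4a2, Lama5 and Col4a1 were higher in the NdpKO;Ptch+/- tumour, and the 5 members from Sparc down were higher in the Ptch+/- tumour.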

How the data were processed

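The authors deposited log2 values that they made from the BeadStudio output of MouseWG-6 v2 arrays with the neqc function of limma, which corrects background and quantile-normalizes. These values were used without further transformation. All 18 columns had a sample. Because arrays were scaled to each other, levels are relative. Depth does not apply to arrays, whose number limits the precision. The authors' filter on probe quality was not applied. Probe symbols came from the array annotation (34885 probes with 1 symbol, 18 with several, 10378 with none), and all 57 members matched RefSeq by Entrez identifier.

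The 4 GNP genotypes were fitted together (16 arrays, 1 mean each, empirical Bayes moderation) with limma 3.58.1 in R 4.3.3. The tumour comparison used 10 arrays, both tumours and the GNPs sharing their genotype, in a model of tissue plus genotype. Tests were two-sided, with Benjamini-Hochberg adjustment over 45281 probes, and called below 0.05. Errors are SE. Level 5 was taken as near background, and a fold against a group below it is a bound. The procedure was tested on simulated data. Principal components used 1500 probes of widest interquartile range.

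Members, gene lists and tests were chosen with earlier results of these data known. Named were members called in any comparison, in each comparison the 5 members with the largest differences among those with a group mean of at least 5, 15 members whatever their values, and members past a log2 difference of 1 between the tumours. Examples from the lists, other measured members and promoters were chosen after their values were seen. Alternatives were a filter on dim probes, a trended prior, array weights, centring, averaging probes, regrouping the array with conflicting labels, a block, fewer or more groups and leaving out arrays.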

Additional observations from a re-analysis of the deposited data

Results flagged for a closer look

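Ptch+/- replicate 3 read 7.25 for Tnc, above the other Ptch+/- arrays, which lay between 6.44 and 6.55. The gap to the nearest array was 0.859 of the range of the group, over the critical value of Dixon's test for 4 values. Of 76 groups of 4 examined this was the 1 that exceeded it, where about 1 in 20 would by chance. The endothelial markers were highest in the same array for 7 of 9, and the part of this in Tnc was not tested.

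The difference made by Ndp loss was below 0 in the WT and above 0 in the Ptch+/- background, and the 2 differed by 1.52 for Tnc and by 0.91 for Lamc1 on the log2 scale, by the interaction test of limma (adjusted p = 0.040 and 0.042). Each call was lost with a replicate block (adjusted p = 0.058 and 0.067), with NdpKO;Ptch+/- replicate 2 counted as NdpKO (0.070 and 0.21), and without any 1 of 13 of the 16 arrays.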

How the results depend on the processing

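Counts of called members moved with the filter, the weights and single arrays. The share of all probes called was not counted under these alternatives, and the filter left 10855 probes to adjust over. The counts therefore describe the settings and do not set the members against other genes. Ptch+/- against WT had 1 called member, and 3 among probes with a mean of at least 5, 2 with array weights, 2 with only the 2 groups fitted, and 0 to 1 leaving out 1 array. NdpKO against WT had 0, and 2 with that filter (Lamc1 and Nid1). NdpKO;Ptch+/- against Ptch+/- had 0, 1 with the filter (Col15a1, which passes it only through the arrays where it is high), and 0 to 1 leaving out 1 array. The interaction had 2, and 8 with the filter, 1 with a trended prior, 0 with NdpKO;Ptch+/- replicate 2 counted as NdpKO, and 0 to 5 leaving out 1 array. With a replicate block the interaction had 0 called members, and the block changed no other count. The numbers did not pair the arrays: over 24 pairs with the same number the median correlation of deviations was -0.05, and 4 of 16 arrays correlated best with their own number. The tumours had 8, and 4 with array weights, 28 with arrays centred, where the added members were mostly near background, and 6 to 9 leaving out 1 array. Left out together, a choice made after seeing the data, NdpKO replicate 4 and NdpKO;Ptch+/- replicate 1 gave 2 (Ptch+/- against WT), 3 (NdpKO against WT), 2 (NdpKO;Ptch+/- against Ptch+/-), 1 (against NdpKO) and 7 (interaction) called members. Where the cause is not the number of probes or arrays, it was not tested. Differences that were called or among the 5 largest of a comparison numbered 36. Over their 668 alternatives 0 changed sign, 53 lost and 13 gained a call. Smaller differences of named members were not in this count, and some changed sign. Without the 2 arrays that stood apart, NdpKO;Ptch+/- against WT went from -0.03 to 0.11 for Col4a1 and from -0.17 to 0.05 for Sparc. Centring moved arrays by -0.02 to 0.003. With 76.0% of probes near background, absent signal limits most members.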
